A study of Mus musculus with 8 samples.

Results

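Acyl-CoA thioesterases cut the thioester bond of a fatty acyl-CoA, releasing a free fatty acid and coenzyme A. They run against the acyl-CoA synthetases, which spend ATP to make the same bond, and so set how much of a cell's coenzyme A is tied up in acyl groups and how much fatty acid is free in the cytosol, the mitochondrion and the peroxisome. In the mouse the type I enzymes, which share an α/β-hydrolase fold, are coded by a row of related genes on chromosome 12, whereas the type II enzymes have an unrelated hotdog fold and lie apart. Fasting and fatty acids are known to raise several of the liver genes through the nuclear receptor PPARα.

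The 10 genes described here were named by symbol: Acot1, Acot2, Acot3, Acot4, Acot5, Acot6, Acot7, Acot8, Acot12 and Acot13. No cutoff on a measured value was used, but earlier results of these data were known when they were chosen. Each matched 1 Ensembl row of the 35275 genes in the table. Of the 10, 6 form the chromosome 12 cluster (Acot1 to Acot6) and 4 lie elsewhere.

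The RNA came from the livers of 9-week-old male mice fasted for 24 h. The Pcx L-/- mice carry a floxed exon 10 of pyruvate carboxylase (Pcx) that is removed by Albumin-Cre, which acts in hepatocytes, so the other liver cells keep the gene. The controls, labelled WT, are Pcx f/f littermates, and there were 4 mice of each genotype. All 8 are labelled C57BL/6, and the Pcx allele was bred from a C57BL/6NTac line. Totals ran from 12016242 to 20023108 counted reads per library, the smallest being control 4. The comparison asks how the loss of hepatic pyruvate carboxylase bears on the fasted liver, here for the enzymes that hydrolyse acyl-CoA.

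The labels were first checked on the targeted gene. Pcx had 18936 ± 3249 normalized counts in control liver and 681 ± 89.9 in Pcx L-/- liver (mean ± SD of 4 mice), for which edgeR gave a log2 fold change of -4.80. Normalized counts are reads divided by the edgeR effective library size and brought back to the scale of reads. All 8 hepatocyte markers (such as Alb, Apoa1 and Cps1) were detected. Their summed FPKM, a level scaled to transcript length and library size, was lower in Pcx L-/- liver, at 32634 to 41188 against 45545 to 49724. Most of that sum was Alb, whose log2 fold change of -0.63 was not called (edgeR adjusted p = 0.0532). The median log2 fold change of the 8 was -0.57, and 2 of the 8 were called lower. Of all genes tested 13.5% were called lower. The red blood cell markers summed to 5338 FPKM in Pcx L-/- mouse 1 and to between 317 and 1412 FPKM in the other 7 mice. Kidney and muscle markers summed to at most 1.15 and 0.320 FPKM. Pancreas markers summed to 7.93 to 10.5 FPKM in Pcx L-/- liver against 2.94 to 7.11 in controls, with Prss1 and Amy2a5 at 0. Most of that sum was Cela1, with mean FPKM of 9.64 in Pcx L-/- liver and 4.85 in controls. The sum and the call of Cela1 below are therefore not separate signs. Macrophage, endothelial, stellate, cholangiocyte and adipose sums overlapped between genotypes. Among single markers of other cells, Cd68 of macrophages (0.86) and Cela1 of pancreas (0.70) were called higher, and Sox9 of cholangiocytes (-0.79) and Car3 of adipose tissue (-1.81) lower (edgeR adjusted p from 0.0202 to 0.0289). The part of these differences in the results on the Acot genes was not tested.

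Within the family the genotypes differed most at Acot2 and Acot6, which rose, and at Acot5, which was nearly silent in control liver and was counted in every Pcx L-/- liver. Acot1, Acot3, Acot4, Acot8, Acot12 and Acot13 did not pass the test, and Acot7 passed narrowly in the lower direction. Of the 9 members with enough reads to be tested, 2 were called higher and 1 lower by edgeR's quasi-likelihood test at an adjusted p under 0.05. Over all 13168 genes tested, 14.1% were called higher and 13.5% lower, 27.6% in all. A difference in bulk liver RNA can come from fewer cells of a type or from less RNA per cell, and these cannot be told apart here.

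**Figure D1:**
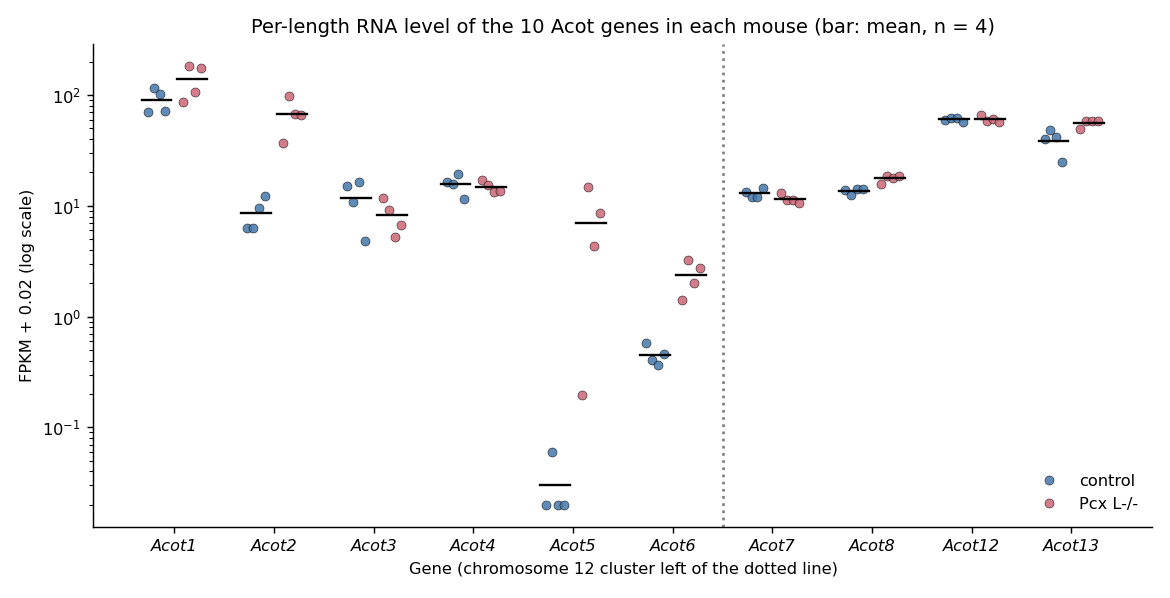
Deposited FPKM of the 10 Acot genes in each of the 8 mice, plotted as FPKM + 0.02 on a log axis, with control mice in blue, Pcx L-/- mice in red and black bars for the mean of 4 mice. The genotypes lie apart at Acot2, Acot5, Acot6, Acot8 and Acot13, and the gap is widest at Acot5, where 3 of the 4 controls had no read. As normalized counts Acot8 and Acot13 overlap.

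The cluster spans 123.5 kb of chromosome 12 (chr12:83987861-84111349, GRCm38), with all 6 genes on the plus strand in the order Acot2, Acot1, Acot4, Acot3, Acot5, Acot6. Their coding regions are alike in size, from 419 codons for Acot1 and Acot6 to 453 for Acot2. Acot3 has 4 exons in the GENCODE M21 transcript used and the other 5 genes have 3. Acot2 codes for the mitochondrial enzyme and Acot1 for the cytosolic one, yet 95.6% of their 1236 aligned coding bases are identical. The other 14 pairs in the cluster range from 73.8% (Acot4 with Acot5) to 85.4% (Acot3 with Acot5).

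The longest run shared by Acot2 and Acot1 is 273 bases in exon 3, within the coding region, and it is shown because the results turn on telling these genes apart. Each line gives that run and 12 bases on either side from the GRCm38 plus strand, chr12:83992716-83993012 for Acot2 and chr12:84016994-84017290 for Acot1, and capitals mark the 7 bases that differ.
Acot2: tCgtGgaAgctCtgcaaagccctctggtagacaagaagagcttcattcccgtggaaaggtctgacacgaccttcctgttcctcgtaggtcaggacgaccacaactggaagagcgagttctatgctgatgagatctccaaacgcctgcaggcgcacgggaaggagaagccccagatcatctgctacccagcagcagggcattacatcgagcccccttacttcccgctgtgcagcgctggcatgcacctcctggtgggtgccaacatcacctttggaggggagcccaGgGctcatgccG
Acot1: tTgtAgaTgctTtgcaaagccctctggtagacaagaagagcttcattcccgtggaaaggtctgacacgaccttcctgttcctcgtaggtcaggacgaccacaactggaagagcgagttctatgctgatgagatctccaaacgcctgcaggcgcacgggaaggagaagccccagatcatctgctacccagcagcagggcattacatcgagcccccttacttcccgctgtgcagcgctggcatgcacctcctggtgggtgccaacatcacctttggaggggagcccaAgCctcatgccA
No read that lies wholly inside the lower-case run can be given to one gene rather than the other by its sequence. Of all 100-base windows of the Acot2 transcript, 17.1% occur on either strand in a transcript of another gene, in each case Acot1. The share was 21.9% for Acot1, 16.6% for Acot3, 8.85% for Acot4, 8.32% for Acot5 and 1.82% for Acot6. The noncoding gene 4732463B04Rik runs antisense through Acot4 and Acot3, and the sources used here do not say whether reads were counted by strand, so the counts of these genes are uncertain to that extent.

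RNA of Acot2, which codes for the mitochondrial thioesterase for long-chain acyl-CoA, rose in Pcx L-/- liver. The paper's own RNA-seq analysis of fasted liver also lists Acot2 as higher. Its Western blots of liver included Acot2 protein, and it reports that the mitochondrial proteins probed there did not change. The legend of those blots also names Pcx, the deleted protein. It gives the age of the mice but no fasting state. Control mice 1 to 4 had 250.3, 247, 387 and 548 normalized counts, and Pcx L-/- mice 1 to 4 had 1424, 3107, 2195 and 2173. The lowest Pcx L-/- mouse stood above the highest control. The means were 358 ± 142 and 2224 ± 689 (SD, n = 4), a ratio of 6.21. The log2 fold change was 2.65 (SE 0.29, edgeR adjusted p = 4.20e-04), and Acot2 ranked 46 from the top by log2 fold change among the genes tested. A test against a 2-fold change gave an adjusted p of 0.00618 (edgeR). The call held under all 23 alternative settings, with log2 fold changes of 2.42 to 2.98.

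Acot1, the cytosolic enzyme, had the highest FPKM of the family in both genotypes at the deposited gene lengths, though with its longer GENCODE M21 transcript it was above Acot12 in only 2 of 4 controls. It had 2006, 3266, 2934 and 2274 normalized counts in control mice 1 to 4. In Pcx L-/- mice 1 to 4 it had 2357, 4169, 2464 and 4119.8. Pcx L-/- mice 2 and 4 exceeded every control, and mice 1 and 3 lay among them. The log2 fold change of 0.32 (SE 0.22) did not pass the test (edgeR adjusted p = 0.315), nor did it under any of the 23 alternatives, where it ran from 0.19 to 0.62. Summing both genes in each mouse, a measure added after the data were seen that does not depend on how the counted reads were split between them, gave 2978 ± 562 normalized counts in controls and 5502 ± 1575 in Pcx L-/- liver (SD, n = 4), from 2257 to 3513 against 3781 to 7276. The sums did not overlap between genotypes, and their means differed by a ratio of 1.85.

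Acot5, coding for a peroxisomal enzyme, was read once in 4 control libraries. The reads were 0, 1, 0 and 0 in control mice 1 to 4 and 5, 430, 123 and 196 in Pcx L-/- mice 1 to 4. All 4 Pcx L-/- mice stood above all controls, but mouse 1 had 5 reads, far below the other 3. The gene failed the filter on low counts, so it is not among the 9 tested. The mean of log2(normalized count + 1) was 0.26 in controls and 6.27 in Pcx L-/- liver, a difference of 6.01 with p = 0.0286 in an exact two-sided permutation test, the smallest p that 4 mice against 4 allow. Per effective library size the summed reads, 754 against 1, differed by a ratio of 572 with an exact 95% interval of 102 to 22642, which covers counting error only. The ratio rests on the 1 read of control mouse 2, without which the controls had none, and was 342 without Pcx L-/- mouse 2, which gave 430 of the 754 reads. Without the filter Acot5 was called higher by edgeR (adjusted p = 7.81e-05), where 8.50% of 21737 genes were called higher.

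Acot6, the last gene of the row and the least abundant after Acot5 in controls, also rose. Its normalized counts were 34.6, 23.8, 21.5 and 30.5 in control mice 1 to 4 and 83.0, 160.3, 98.0 and 138 in Pcx L-/- mice 1 to 4. The ranges were apart, as they were for Acot2, and these were the 2 of the 9 tested members whose normalized counts did not overlap between genotypes. Over all genes tested, 27.6% did not overlap. Acot6 averaged 27.6 ± 6.03 in controls and 119.8 ± 35.6 in Pcx L-/- liver (SD, n = 4). The log2 fold change was 2.11 (SE 0.26, edgeR adjusted p = 7.35e-04). All 23 alternatives called it higher, with log2 fold changes from 1.19, on log2(FPKM + 1), to 2.41. Its control level rests on 18 to 38 reads per library.

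Between these genes lie Acot4 and Acot3, peroxisomal enzymes, of which Acot4 is known for hydrolysing succinyl-CoA. Acot4 had 696, 659, 824 and 541 normalized counts in control mice 1 to 4 and 691, 519.8, 459 and 472 in Pcx L-/- mice 1 to 4. Acot3 had 707, 510.4, 778 and 256 in controls and 538, 349.6, 197 and 261 in Pcx L-/- mice. For both genes Pcx L-/- mouse 1 was the highest of its genotype and control mouse 4 the lowest of its own, and the genotypes overlapped. The log2 fold changes of -0.35 (SE 0.16) for Acot4 and -0.75 (SE 0.34) for Acot3 did not pass the test (edgeR adjusted p = 0.129 for each). Leaving out Pcx L-/- mouse 1 brought both past it, at -0.50 (edgeR adjusted p = 0.0180) and -1.08 (edgeR adjusted p = 0.0248), and leaving out control mouse 4 did so for Acot3 (-0.99, edgeR adjusted p = 0.0323). Of all genes tested, 34.5% were called without Pcx L-/- mouse 1 and 27.2% without control mouse 4, against 27.6% in the main test.

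Pcx L-/- mouse 1 thus had the lowest Acot1, Acot2, Acot5 and Acot6 of its genotype and the highest Acot3 and Acot4. This is not particular to the Acot genes. Over all genes tested its library correlated with controls (Spearman 0.9694 to 0.9809) about as well as with other Pcx L-/- libraries (0.9761 to 0.9828). The labels give mouse numbers, which were split here by their first digit into 2 series. This mouse is the only one of its genotype in the lower series, which also holds 2 of the 4 controls. Its library also held the most red blood cell RNA, as given above. With the number series as a covariate Acot2 stood at 2.46 (edgeR adjusted p = 1.77e-05) and Acot6 at 2.02 (edgeR adjusted p = 0.00101). Among mice of the upper series alone, 2 controls and 3 Pcx L-/-, they stood at 2.42 (edgeR adjusted p = 6.30e-05) and 2.37 (edgeR adjusted p = 4.53e-04).

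**Figure D2:**
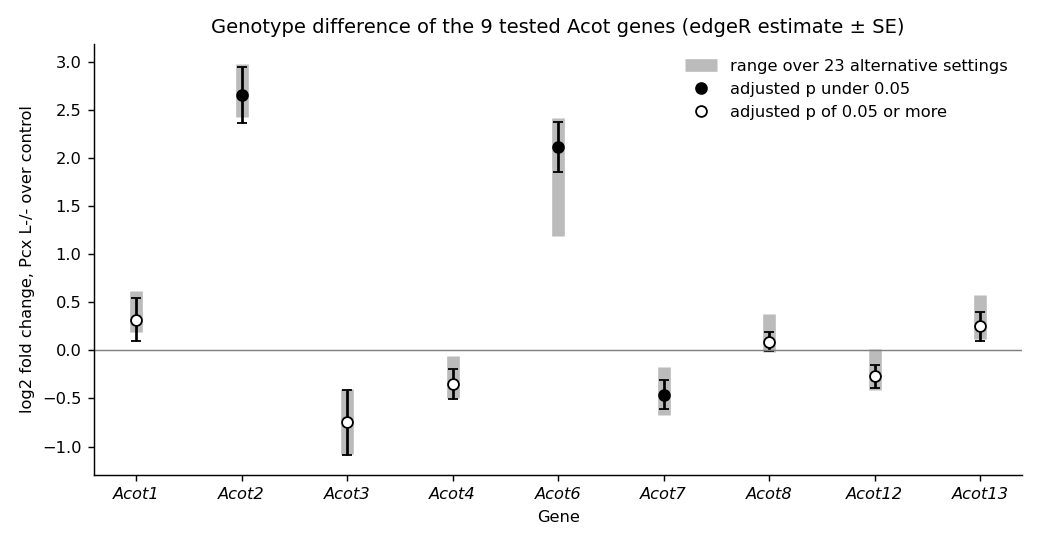
Log2 fold change (Pcx L-/- over control, y axis) of the 9 tested Acot genes, with the edgeR standard error as bars, filled circles for an adjusted p under 0.05, and grey bands for the range over 23 alternative settings. Acot2 at 2.65 and Acot6 at 2.11 stand clear of the other genes, and the bands of Acot8 and Acot12 reach across 0.

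The upstream 250 bases of Acot2, Acot5 and Acot4 are shown because their genes lie in 1 cluster and had unlike values: Acot2 and Acot5 with every Pcx L-/- mouse above every control, and Acot4 with overlapping genotypes. They are RefSeq promoters on GRCm38.p6, all from the plus strand, chr12:83987611-83987860 for Acot2, chr12:84069074-84069323 for Acot5 and chr12:84038129-84038378 for Acot4. Capitals mark AGGTCA (the hexamer bound by nuclear receptors such as PPARα) or CCAAT on either strand, and TATAAA on the gene's strand.
Acot2: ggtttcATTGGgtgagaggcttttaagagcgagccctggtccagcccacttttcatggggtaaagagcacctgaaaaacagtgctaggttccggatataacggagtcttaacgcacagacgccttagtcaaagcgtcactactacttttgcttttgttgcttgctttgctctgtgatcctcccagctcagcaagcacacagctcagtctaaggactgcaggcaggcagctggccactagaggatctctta
Acot5: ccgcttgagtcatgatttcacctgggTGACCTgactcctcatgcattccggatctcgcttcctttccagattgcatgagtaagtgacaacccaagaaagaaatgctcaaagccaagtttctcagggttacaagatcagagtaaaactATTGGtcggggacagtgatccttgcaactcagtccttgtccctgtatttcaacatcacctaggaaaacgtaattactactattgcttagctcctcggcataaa
Acot4: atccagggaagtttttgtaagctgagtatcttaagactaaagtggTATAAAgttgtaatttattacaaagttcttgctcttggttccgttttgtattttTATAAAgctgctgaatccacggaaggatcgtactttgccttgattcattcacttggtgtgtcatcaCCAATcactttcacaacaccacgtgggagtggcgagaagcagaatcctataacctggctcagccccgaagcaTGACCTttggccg
Acot2 had no AGGTCA and a single CCAAT match, 244 to 240 bases before its start. Acot5 had AGGTCA at 224 to 219 bases and CCAAT at 103 to 99. Acot4 had AGGTCA at 13 to 8 bases, CCAAT at 85 to 81, and TATAAA at 151 to 146 and at 205 to 200. Of the 8 members with a promoter in the table, Acot12 was the only other one with AGGTCA, 110 to 105 bases before its start. AGGTCA occurs in 14.0% of all 32851 promoters of this length, CCAAT in 33.8% and TATAAA in 7.59%. A direct repeat of AGGTCA with 1 base between the copies was in 0.0335% of promoters and in none of the members', and TTGCATCA, searched on both strands, was in 0.791% and in none of the members'. These are matches of letters in a short window and say nothing of binding.

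Of the 4 members outside the cluster, 1 passed the test. Acot7 (chr4:152178134-152271855, plus strand, 9 exons), a cytosolic long-chain enzyme best known from brain, had 363, 329, 334 and 448 normalized counts in control mice 1 to 4 and 339.7, 249, 247 and 237 in Pcx L-/- mice. The first Pcx L-/- mouse lay within the control range and the other 3 below it. The log2 fold change was -0.46 (SE 0.15, edgeR adjusted p = 0.0402). This call was lost in 13 of the 23 alternatives, among them scaling by library size alone (-0.18, edgeR adjusted p = 0.301) and the leaving out of 1 mouse in 6 of 8 cases, with log2 fold changes from -0.59 to -0.35 over those 8.

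Acot8 (chr2:164792765-164804882, minus strand, 6 exons), a broad peroxisomal hotdog enzyme, had 320.4, 286, 332 and 368 normalized counts in controls and 351, 345, 335 and 357 in Pcx L-/- liver. These overlapped, with a log2 fold change of 0.09 (SE 0.10, edgeR adjusted p = 0.564). Of its 100-base windows 13.8% also occur in Snx21, a share that was 0% for Acot7 and Acot13 and 1.69% for Acot12. Acot13 (chr13:24817948-24831540, minus strand, 3 exons), a small hotdog protein found with mitochondria, had 524, 629.6, 557 and 363 in controls and 628, 607, 621 and 624 in Pcx L-/- mice, a log2 fold change of 0.25 (SE 0.15, edgeR adjusted p = 0.224). The 4 Pcx L-/- mice were close to one another, with 3 controls below them and 1 above.

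Acot12 (chr13:91741512-91786148, plus strand, 15 exons) codes for the cytosolic hydrolase of acetyl-CoA. It had 3317, 3433, 3467 and 3581 normalized counts in controls and 3518, 2575, 2754 and 2630.4 in Pcx L-/- mice. Mouse 1 of the Pcx L-/- group was again among the controls, with the other 3 below. The log2 fold change of -0.27 (SE 0.12) did not pass the test (edgeR adjusted p = 0.137). Without that mouse it was -0.38 (edgeR adjusted p = 0.0102), in a fit that called 34.5% of all genes tested against 27.6% in the main test. With library-size scaling the sign turned, to 0.0091 (edgeR adjusted p = 0.953).

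The calls of Acot7, Acot8 and Acot13 depended on how the libraries were scaled. Scaling by library size alone raised the median over all genes tested, on the log2 scale, from -0.005 to 0.28, and the share of higher calls from 51.1% to 81.8%. Under it Acot8 (0.38, edgeR adjusted p = 0.0291) and Acot13 (0.53, edgeR adjusted p = 0.0328) were called higher and Acot7 was not called. FPKM are scaled in that way. On that scale Acot8 ranged from 12.4 to 14.2 in controls and from 15.7 to 18.7 in Pcx L-/- liver, and Acot13 from 24.7 to 48.4 and from 49.7 to 58.6, without overlap. With Acot2 and Acot6, this made 4 of the 9 tested members apart in FPKM, where 32.5% of all genes tested were apart. Relative to the shift of 0.28 in the median gene, Acot8 and Acot13 lay 0.10 and 0.25 above it, Acot12 0.27 and Acot7 0.46 below it, and Acot2 and Acot6 2.70 and 2.13 above it.

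Per length of transcript, in FPKM, the order of the genes in control liver was Acot1 (90.1 ± 22.7, SD, n = 4), Acot12 (60.2 ± 2.16) and Acot13 (38.7 ± 10.0), each apart from the next in all 4 mice. Below them Acot4 (15.7 ± 3.23), Acot8 (13.6 ± 0.809), Acot7 (13.0 ± 1.19), Acot3 (11.7 ± 5.13) and Acot2 (8.57 ± 2.90) overlapped each with its neighbour. Acot6 (0.434 ± 0.0931) and Acot5 (0.00990 ± 0.0198) came last. In Pcx L-/- liver Acot2 moved from eighth to second place, with 67.0 ± 24.5 FPKM against 138 ± 48.9 for Acot1 and 60.5 ± 3.81 for Acot12. The ranges of Acot1, Acot2, Acot12 and Acot13 (56.0 ± 4.18) overlapped each with the next in that order, although Acot1 exceeded Acot2 in every mouse. Acot5, at 6.96 ± 6.26 FPKM, overlapped both Acot3 (8.24 ± 2.93) and Acot6 (2.33 ± 0.814). These levels rest on 1 length per gene in the deposited table, which was shorter than the GENCODE M21 transcript for Acot1 (1559 against 2272 bases), Acot3 (2594 against 3431) and Acot4 (2325 against 6203) and longer for Acot8 (1276 against 1152). With the transcript lengths, a choice made after the data were seen, control Acot1 was at 61.8 ± 15.6 FPKM beside 60.2 ± 2.16 for Acot12, above it in 2 of 4 mice, Acot3 was at 8.88 ± 3.88, and Acot4 fell to 5.88 ± 1.21, below Acot2. Acot1 still had the highest mean in Pcx L-/- liver, with 59.2 to 126 FPKM, followed by Acot2.

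The make-up of the cluster's RNA changed with genotype. Summed FPKM of the 6 cluster genes were 109, 149, 147 and 100.5 in control mice 1 to 4 and 154, 323, 200.2 and 275 in Pcx L-/- mice 1 to 4, so every Pcx L-/- mouse was above every control. Acot2 made up 4.17% to 12.2% of the sum in controls and 24.1% to 33.9% in Pcx L-/- liver. Acot1 made up 64.9% to 77.7% in controls and 53.7% to 64.4% in Pcx L-/- liver, without overlap. Acot3 was 4.82% to 13.7% of the sum in controls and 2.45% to 2.86% in Pcx L-/- mice 2 to 4, with 7.70% in mouse 1. The 4 genes outside the cluster summed to 111 to 135 FPKM in controls and to 144 to 149 in Pcx L-/- liver. Their sum thus stood at 126 ± 10.4 beside 127 ± 25.5 for the cluster in controls, and at 146 ± 2.16 beside 238 ± 75.5 in Pcx L-/- liver (SD, n = 4). Shares of a sum are tied to each other and were not tested. These sums carry the library-size shift: divided by the edgeR scaling factors, also added later, the cluster summed to 117 to 160.1 in controls and 158 to 277 in Pcx L-/- liver, with an overlap and a ratio of means of 1.53. The other 4 genes then summed to 133 to 144 and 125 to 148, a ratio of 0.957. The shares within a mouse do not depend on scaling, but sums and shares both rest on the deposited lengths. These were shorter than the GENCODE M21 transcripts for Acot1, Acot3 and Acot4. With the transcript length, control Acot1, the largest part of the cluster, was at 61.8 FPKM instead of 90.1. The near equal sums in controls therefore hold for the deposited lengths only.

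**Figure D3:**
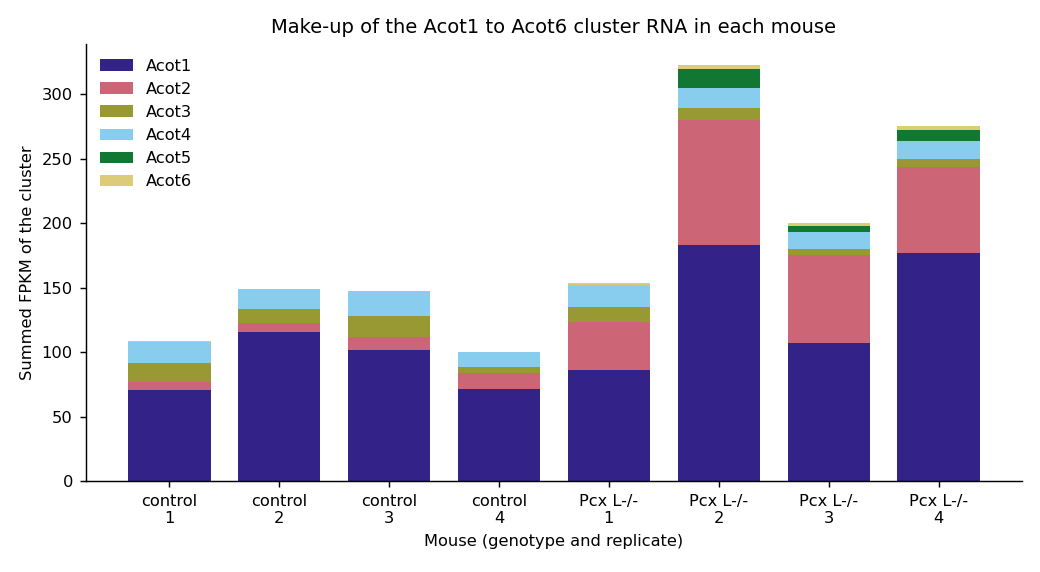
Summed FPKM of the 6 cluster genes in each mouse, stacked by gene from Acot1 at the bottom to Acot6 at the top. The Pcx L-/- bars reach 154 to 323 FPKM against 100.5 to 149 in controls, with a larger Acot2 layer in each.

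Taking the cluster as a list, 2 of 5 tested genes were called higher and 0 lower, with a median log2 fold change of 0.32. Outside it 0 of 4 were higher and 1 lower, with a median of -0.09, which turned to 0.19 with library-size scaling. The median of all genes tested was -0.005, with 14.1% called higher and 13.5% lower. Acot5 is in neither the count nor the median. It passed the filter in some of the fits with 1 mouse left out, through its reads in Pcx L-/- liver alone, and these fits are not counted for it here. The difference between both sets was not tested, since they are small and were chosen with earlier results known.

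Genes beside the cluster were then examined. Within 250 kb of either end 25 other genes are annotated, of which 14 were in the table and 9 had enough reads to be tested, and 0 of these 9 were called by edgeR at an adjusted p under 0.05. Over all genes tested 27.6% were called. DESeq2 and limma-voom also called 0 of 9, and with each tool 2 of the 9 had an unadjusted p under 0.05, Elmsan1 (0.34, edgeR adjusted p = 0.0786) and Riox1 (0.46, edgeR adjusted p = 0.0908). Both were called higher with library-size scaling, at 0.64 (edgeR adjusted p = 0.00842) and 0.75 (edgeR adjusted p = 0.0185), and in the limma fits on filtered FPKM. Elmsan1 was also called higher with upper-quartile scaling, in the unfiltered one, and without control mouse 4 or Pcx L-/- mouse 1. The antisense 4732463B04Rik was at -0.49 (-0.75 without control mouse 4, edgeR adjusted p = 0.0332), beside -0.75 for Acot3 and -0.35 for Acot4, which it overlaps. Numb (-0.09), Papln (-0.14), Dnal1 (0.09), Ptgr2 (-0.05), Zfp410 (-0.13) and Fam161b (0.29) lay closer to 0. Dnal1 begins 126.5 kb from the start of Acot2, beyond Acot6 at 112.8 kb, and Heatr4, which begins 3.0 kb before Acot2, had 5 reads in all 8 libraries.

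**Figure D4:**
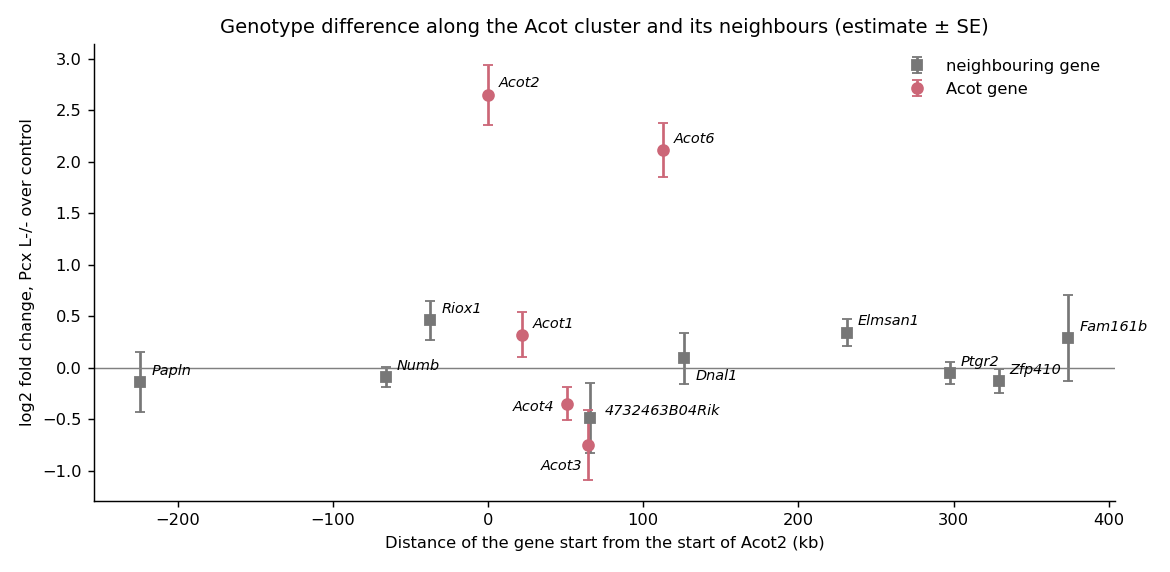
Log2 fold change with its standard error (Pcx L-/- over control, y axis) against the distance of each gene's start from the start of Acot2 in kb (x axis), for the 5 tested Acot genes of the cluster (red circles) and 9 neighbours (grey squares). Acot2 at 0 kb and Acot6 at 112.8 kb stand above 2, and every other gene lies between -0.75 and 0.46.

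Genes whose profile over the 8 mice was most like that of Acot2 were found by Pearson correlation of normalized counts on the log2 scale. The 5 highest were Vldlr (r = 0.996), which codes for the very low density lipoprotein receptor, Gm6614 (0.992), Ptgfrn (0.986), Tbl2 (0.985) and Rwdd2b (0.985). All points share the genotype difference, so the genotype means were also subtracted. The highest were then Tbc1d8 (0.991), Ero1lb (0.989), Ctdp1 (0.989), Zzz3 (0.987) and Vldlr (0.984), so Vldlr was in both sets. Acot6 had r = 0.948 over the 8 mice, rank 248 of all genes, and 0.454 within genotypes, while Acot1 had 0.469 and 0.31. Within genotypes Gm6614 still had r = 0.915 at rank 157 and Ptgfrn 0.853 at rank 462, so many genes came close. Tbc1d8, first within genotypes, had 0.025 over the 8 mice. These are descriptions over 8 libraries, and the genes named are the highest of all genes tested.

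Other thioesterases were measured on a list of 12 genes, of which 9 were tested, with 1 called higher, 1 lower and a median of -0.14. Over all genes tested 14.1% were called higher and 13.5% lower. Acot9, a mitochondrial hotdog enzyme, rose from 65.2 ± 16.6 to 139 ± 35.2 normalized counts (SD, n = 4), a log2 fold change of 1.10 (SE 0.24, edgeR adjusted p = 0.00695). Acot11 fell by 1.16 on the log2 scale (SE 0.27, edgeR adjusted p = 0.0100) from 63.6 ± 11.3 normalized counts. Baat, which joins bile acids to glycine or taurine, was at -0.36, the depalmitoylating enzymes Lypla1 and Lypla2 at -0.30 and 0.29, and Ppt1 and Ppt2 at -0.14 and 0.02. Them4 stood at -0.22 and Them6 at 0.53. Those 7 did not pass. Acot10 and Olah had no reads, and Them5 had 8 in all libraries.

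The acyl-CoA synthetases, which catalyse the opposite reaction, had 2 genes called higher and 9 lower of 16 tested, with a median of -0.40. For this and the next 2 lists the shares over all genes tested were 14.1% higher and 13.5% lower. Acsl4, which prefers arachidonic acid, rose (1.79, SE 0.23, edgeR adjusted p = 8.20e-04), as did Acsf3 (0.86), the mitochondrial malonyl-CoA synthetase. Acss3 (-1.70) and the bile acid and fatty acid activating Slc27a5 (-1.12) fell most. The number called lower ran from 5 (without Pcx L-/- mouse 3 or 4) to 10 with 1 mouse left out, and the median was -0.12 with library-size scaling. The share of all genes called in either direction with 1 mouse left out ran from 15.7% to 34.5%, the latter without Pcx L-/- mouse 1. Of the mitochondrial β-oxidation list 0 of 19 genes were called higher and 7 lower, with Acaa2 (-0.81) and Slc25a20 (-0.64) lowest and a median of -0.40. Leaving out 1 mouse gave 3 to 15 called lower, the 15 without Pcx L-/- mouse 1, and library-size scaling gave 1 higher and 2 lower with a median of -0.12. Of the peroxisomal list 0 of 20 were higher and 8 lower, with the transporter Abcd2 (-1.57) and the thiolase Acaa1b (-0.76) lowest and a median of -0.38. With 1 mouse left out 4 to 14 were lower, the 14 without Pcx L-/- mouse 1, and with library-size scaling 2 were higher and 4 lower with a median of -0.10.

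Genes of coenzyme A synthesis and breakdown had 1 called higher and 7 lower of 14, with a median of -0.40. The 1 that rose was Nudt7 (0.52, edgeR adjusted p = 0.0258), a peroxisomal hydrolase of coenzyme A, and Vnn1 (-1.11) and Vnn3 (-0.81), which split pantetheine, were lowest. The Nudt7 call was lost without control mouse 2 or 3 or Pcx L-/- mouse 2 or 4 (edgeR adjusted p up to 0.0788). Called lower were 5 to 8 genes with 1 mouse left out, and the median was -0.12 with library-size scaling. A list of 26 tested PPARα target genes had 6 called higher and 8 lower with a median of -0.22. Fgf21 (4.23) and Cidec (3.45) led it, and Vnn1 (-1.11) and Acsl1 (-1.01) closed it, so genes of this list differed in both directions. Called lower were 4 to 9 of them with 1 mouse left out. The lists overlap, and they are given by counts without a test of the list. Over all genes tested 14.1% were called higher and 13.5% lower, and with 1 mouse left out 15.7% to 34.5% were called in either direction. With library-size scaling the medians moved to 0.15 for the other thioesterases and 0.06 for the PPARα targets.

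Of 10 regulators tested, 2 were called higher and 2 lower, with a median of -0.30. These counts are near the shares over all genes tested, 14.1% higher and 13.5% lower. Ppara itself was lower (-0.52, edgeR adjusted p = 0.0137), a call lost without Pcx L-/- mouse 4 (edgeR adjusted p = 0.0534), with library-size scaling (-0.24, edgeR adjusted p = 0.107) and in the 3 FPKM fits. Pparg (0.76, edgeR adjusted p = 0.00578) and the shared partner Rxrb (0.44, edgeR adjusted p = 0.0112) were higher. Nr1i3, the xenobiotic receptor CAR, was lower (-1.11, edgeR adjusted p = 0.0193), and this call was lost in 5 of the 8 fits with 1 mouse left out, namely without control mouse 1 or 3 or Pcx L-/- mouse 2, 3 or 4 (edgeR adjusted p of 0.0504 to 0.0621), and in the 3 FPKM fits. Rxra (-0.34), Hnf4a (-0.31), Ppargc1a (-0.49), Ppargc1b (-0.15), Ppard (-0.28) and the corepressor Ncor1 (0.01) did not pass.

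**Figure D5:**
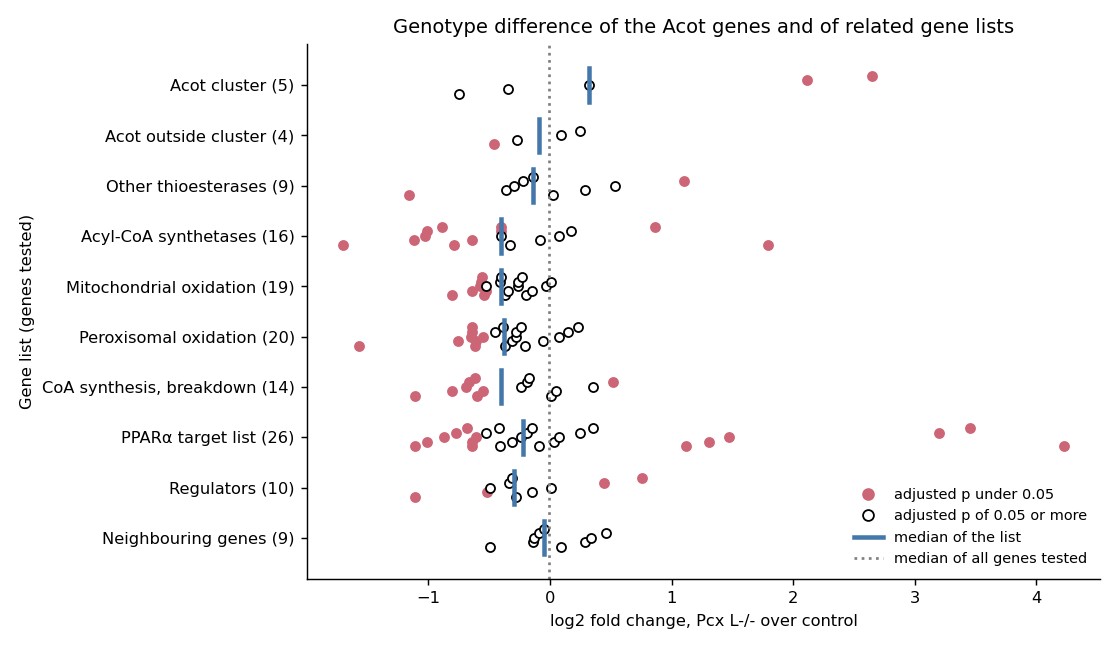
Log2 fold change (Pcx L-/- over control, x axis) of every tested gene of 10 lists, filled red where the adjusted p was under 0.05, with the list's median in blue and the median of all genes tested as a dotted line. Acot2 and Acot6 are the 2 red points of the Acot cluster, and the synthetase and both oxidation lists have medians from -0.40 to -0.38.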

How the data were processed

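Liver RNA was sequenced from 4 Pcx L-/- and 4 Pcx f/f mice, each library from a separate animal by its label. A company made and sequenced the libraries. The count table deposited by the authors holds unnormalized reads for each Ensembl gene after alignment to mm10 (GRCm38). The submitters' processing notes name STAR 2.5, HTSeq 0.6.1 and DESeq2. The annotation release and use of strand are not given there or in the methods. The authors also deposited FPKM, and 100% of 142384 values above 0 equal the count divided by 1 length per gene and by the library total, within a relative tolerance of 1e-06. FPKM therefore move with the most abundant genes of a library, and reads shared by paralogs may be lost or misplaced.

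Counts were fitted over all genes with edgeR 4.0.16 (R 4.3.3) using TMM factors, filterByExpr (minimum count 10, minimum total 15), genotype as the only term, the quasi-likelihood F test and p-values adjusted by the method of Benjamini and Hochberg over 13168 genes. The biological coefficient of variation was 0.181 with 6 residual degrees of freedom. Approximate standard errors were taken from each log2 fold change and its F. Acot5, under the filter, was compared by an exact permutation test on log2(normalized count + 1), and the ratio of its summed reads carries an exact 95% interval from the binomial distribution (SciPy 1.17.1). On simulated counts for this comparison (12961 genes tested), edgeR recovered 73.3% of 86 genes changed 2-fold and 98.1% of 108 changed 4-fold, with 9 false calls. DESeq2 recovered 79.1% and 98.2% with 29. Few genes were changed in the simulation, in either direction at random, whereas 27.6% of genes tested were called in the data. These rates may therefore not hold for the data.

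The members and the lists were chosen with earlier results of these data known. The text names the 10 members, Pcx, the tested neighbours, the other thioesterases that were called or reached 1 FPKM, the 10 regulators, the 2 called genes with the highest and the 2 with the lowest log2 fold change of each other list, and the 5 genes most correlated with Acot2 on each measure. Alternatives were other scalings, filters, DESeq2 1.42.0 with and without apeglm 1.24.0, limma 3.58.1 on counts and on log2(FPKM + 1) or log2(FPKM + 0.1), a replicate block, the mouse-number series, a 2-fold test and each mouse left out. Replicate numbers were checked for pairing, and deviations of same-numbered mice correlated between -0.131 and 0.101, so they were not treated as pairs. Libraries of the same genotype had Spearman correlations of 0.976 to 0.993 and differed by more than sampling noise. Symbols and coding regions came from GENCODE M21 (GRCm38), with 34490 of 35275 identifiers matched, and promoters from RefSeq (GRCm38.p6), which matched 8 of the 10 members. Proteins were not analysed here; coding sequences were compared in their place. Nudt8, on the coenzyme A list, was not analysed here.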

Additional observations from a re-analysis of the deposited data

Results flagged for a closer look

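Among the 20 groups of 4 mice (10 genes in 2 genotypes), 2 held a mouse far from the other 3 by Dixon's test at the 95% level, where chance flags about 1 in 20. Pcx L-/- mouse 1 had 339.7 normalized counts of Acot7, against 237 to 249 in the other 3. Control mouse 2 had 1.08 normalized counts of Acot5, which is 1 read, where the other 3 controls had none. With 3 equal values any single read is flagged, so this one marks no unusual mouse.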

How the results depend on the processing

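The higher calls of Acot2 and Acot6 held under all 23 alternatives. Members called higher numbered 2 in the main test. They numbered 4 with library-size scaling and in the limma fits on log2(FPKM + 1) and log2(FPKM + 0.1), where Acot8 and Acot13 joined them. On log2(FPKM + 1) with no filter they also numbered 4, but with Acot5 (limma adjusted p = 0.0412) and Acot8, and without Acot13 (limma adjusted p = 0.0738). They numbered 3 with Acot5 added in DESeq2 (DESeq2 adjusted p = 3.16e-06) and in edgeR without the filter. Members called lower numbered 1 in the main test, 2 among mice of the upper number series, and 0 with library-size scaling, in the 3 FPKM fits, with the number series as a covariate and in the 2-fold test. The replicate block gave 2975 called genes in all and 0 members called lower (Acot7, edgeR adjusted p = 0.0560), and changed no other member's call; the numbers are only names here. Acot12 turned to 0.0091 with library-size scaling and to 0.0074, 0.0075 and 0.0074 in the FPKM fits, and Acot8 to -0.015 among upper-series mice. Library-size scaling also turned the medians of the members outside the cluster (0.19), other thioesterases (0.15), PPARα targets (0.06), regulators (0.00) and neighbours (0.23). As TPM the summed level outside the cluster differed by a ratio of 1.14 instead of 1.16, and divided by the edgeR scaling factors by 0.957, with Pcx L-/- lower. Leaving out 1 mouse gave 2109 (without Pcx L-/- mouse 4) to 4602 (without Pcx L-/- mouse 1) called genes against 3632, with 2295 without Pcx L-/- mouse 2, and 118 passed the 2-fold test. It gave 0 to 4 members called lower (4 without Pcx L-/- mouse 1), a median of -0.07 to 0.11 for the neighbours, and Acot5 differences of 5.31 to 7.26, for which 3 mice against 4 cannot go below an exact permutation p of 0.0571. The cause of these changes was not tested beyond the scaling, the fewer mice or the stricter threshold that each brings.

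With 18 to 38 reads of Acot6 and 0 to 1 of Acot5 in control libraries, depth limits both control levels. Reads wholly inside the sequence that Acot1 and Acot2 share cannot be assigned by their own sequence, and FPKM rest on 1 length per gene.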
